A study of Mus musculus with 8 samples.

Results

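Glucuronidation and sulfation join a drug, hormone or bile acid to a sugar acid or to sulfate and make it soluble enough to leave the body. The genes described here carried those reactions and were taken by symbol: all probes named Ugt or Sult followed by a number, together with Papss1, Papss2, Ugdh, Ugp2 and Slc26a1, which supply the donor molecules. The rule gave 58 probes for 41 genes, of 56605 non-control probes and 36666 gene names on the array. Of the 41 genes, 29 had a probe with signal well above background on 4 or more of the 8 arrays and entered the fit, among 17565 tested genes. The tested members were 3 UGT1, 9 UGT2, 2 UGT3 and 10 SULT genes and all 5 genes of cofactor supply, while Ugt8a, the enzyme of a myelin lipid, was not tested.

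The study measured total RNA of livers from male mice aged 80 weeks and male mice aged 8 weeks, with 4 samples of each age on 8 single-colour Agilent arrays. All 8 livers were taken 8 h after acetaminophen, and the sources used here give neither dose nor strain nor whether the 4 samples of an age came from 4 animals. No untreated liver was analysed here, so a difference between ages before the drug and a different response to it cannot be told apart. The 80-week samples lay on row 2 and the 8-week samples on row 1 of 1 slide, so that row and age cannot be told apart either.

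UDP-glucuronosyltransferases (UGTs) sit in the endoplasmic reticulum and transfer glucuronic acid from UDP-glucuronic acid. Cytosolic sulfotransferases (SULTs) transfer sulfate from PAPS, the activated form of sulfate. Both families act directly on acetaminophen in the liver, and the rest of the dose that is oxidised by cytochromes P450 forms the toxic product. The Ugt1a genes share their last exons and differ in the first exon, each first exon having a promoter of its own, whereas the UGT2 genes are mostly separate genes in 1 cluster.

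Values are log2 signal minus the array's 75th percentile, a difference is 80-week minus 8-week on that scale, and its error is the standard error (SE) of the limma fit. The p-values measure only how far these samples vary, in part perhaps technically, and each probe is compared only with itself across arrays. In whole liver, fewer cells of a type and less RNA per cell cannot be told apart. The arrays had 43.3% to 50.4% of probes well above background and 0 saturated spots. The 8-week replicates 1 and 2 stood apart from the other 6 arrays along the first principal component, which held 49.1% of the variance. Differences without these replicates are given beside many of the results, and for every tested member in the plot of differences.

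The Ugt1a first-exon sequences are shown because their probes gave age differences of opposite sign, although the ages overlapped for the Ugt1a6b probe. The Ugt1a10 probe lies in a coding first exon at chr1:89952780-89952839 of build mm9, plus strand, and the array files list transcripts of both Ugt1a10 and Ugt1a9 for it. The Ugt1a6b probe lies in the coding first exon of that gene at chr1:90004249-90004308, plus strand. An ungapped alignment of both 60-base probes overlapped by 54 bases, of which 32 (59.3%) were identical, and these are in capitals.
Ugt1a10: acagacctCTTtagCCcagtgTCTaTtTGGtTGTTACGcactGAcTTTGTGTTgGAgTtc
Ugt1a6b: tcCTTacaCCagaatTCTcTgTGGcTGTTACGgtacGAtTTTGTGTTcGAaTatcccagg

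No member passed the threshold: with limma and Benjamini-Hochberg adjustment over all genes, 0 of 29 had an adjusted p under 0.05, where 0.359% of all tested genes did (58 higher, 0.33%, and 5 lower, 0.0285%). At an unadjusted p under 0.05 there were 5 members higher (7.91% of all tested genes) and 3 lower (6.14%), 8 of 29 in all beside 14.1%. Groups did not overlap for 4 of 29 members, beside 8.38% of all genes. Of these, Sult1c2 and Ugt3a1 lay above (4.62% of all genes did) and Ugt1a10 and Ugt2b35 lay below (3.76% of all genes). Differences were positive for 22 of 29 members, where 52% of all genes were positive, and the median was 0.29 for the members and 0.02 for all tested genes. That lean rested largely on 1 array: 8-week replicate 2 gave the lowest of the 8 values for 21 of the 29 members, and for 35.1% of all tested genes. Without 8-week replicates 1 and 2, 16 of 29 members were positive, where 42.5% of all genes were, and 0 members passed the threshold. The median was then 0.03 for the members and -0.06 for all tested genes.

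**Figure D1:**
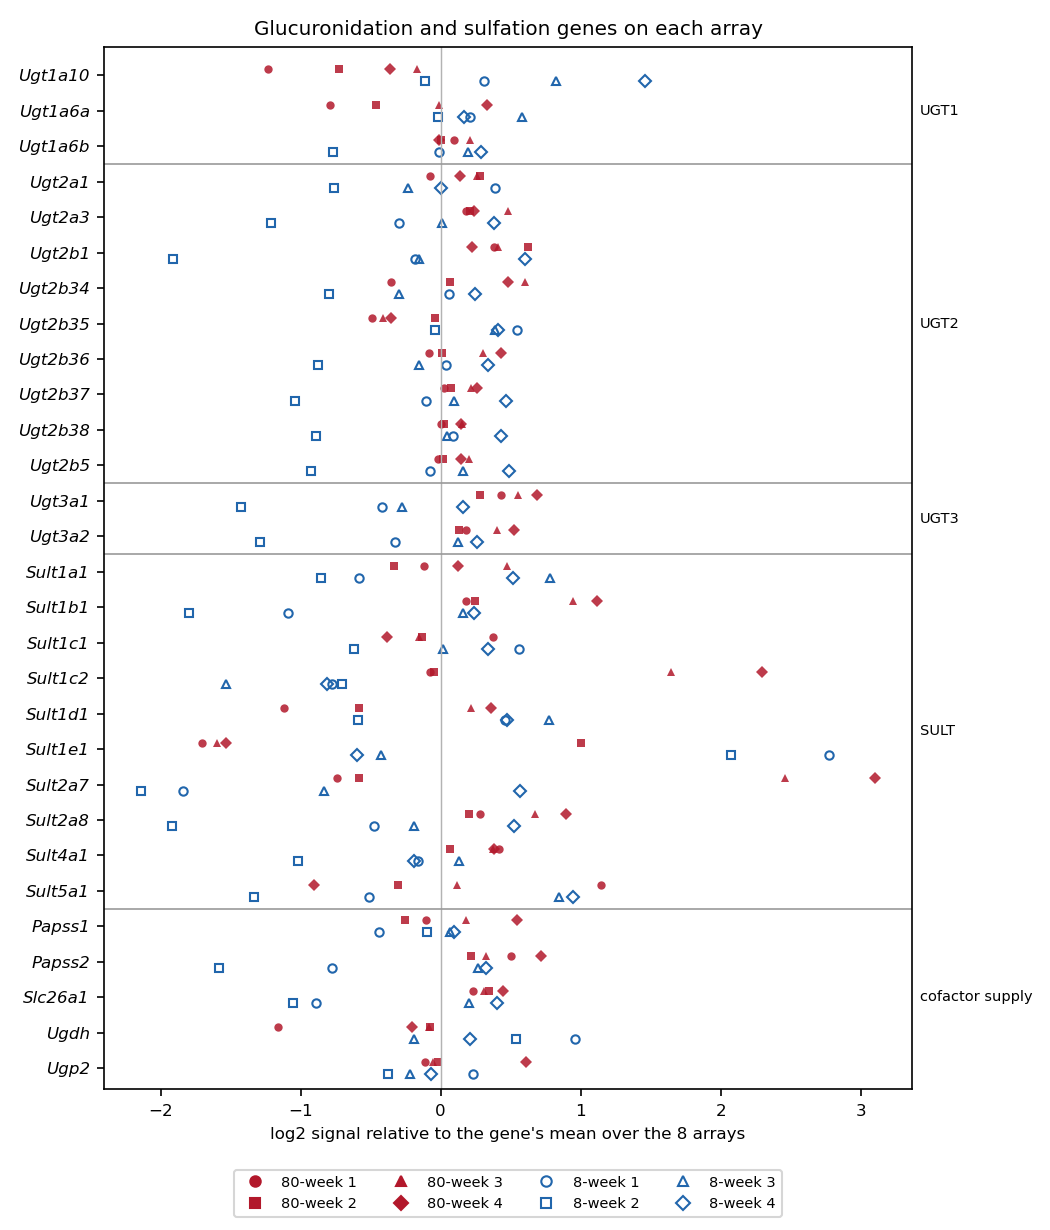
Each point is the log2 signal of one tested member on one array, relative to that gene's mean over the 8 arrays, with 80-week arrays as filled red symbols above and 8-week arrays as open blue symbols below. The 8-week replicate 2 (open squares) is the leftmost point in 21 of the 29 rows, and Sult1c2, Sult2a7 and Sult1e1 spread widest.

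By group, the median differences were -0.47 for UGT1, 0.30 for UGT2, 0.80 for UGT3, 0.35 for SULT and 0.21 for cofactor supply, beside 0.02 for all tested genes. These medians are descriptions of few genes and carry no test. The UGT1 median is the value of the dim Ugt1a6a probe, and it was -0.047 with normexp background correction. Without 8-week replicates 1 and 2 the group medians were -0.61, 0.07, 0.33, 0.04 and 0.03 in the same order, beside -0.06 for all tested genes.

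**Figure D2:**
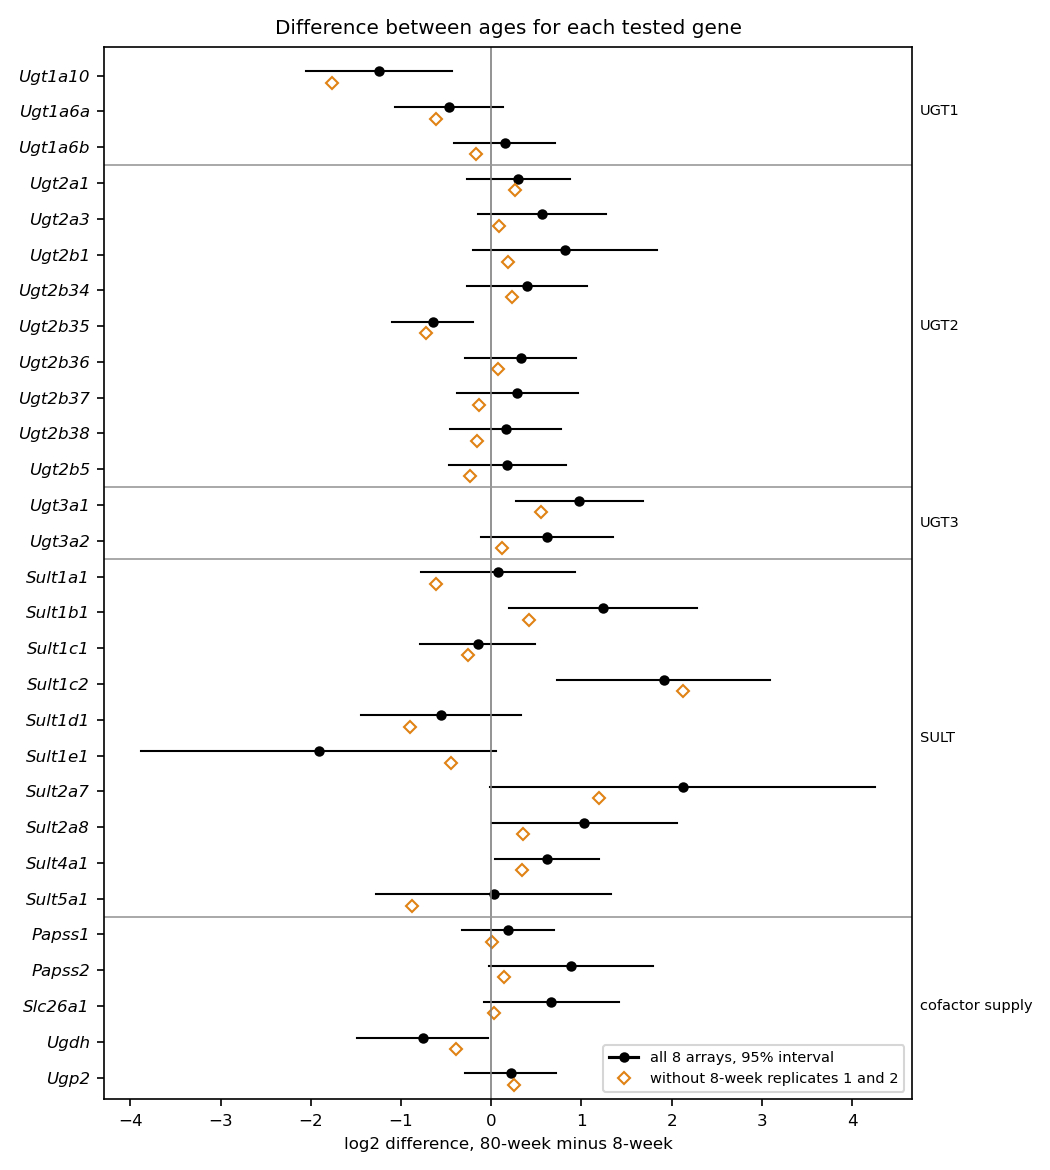
Log2 difference, 80-week minus 8-week, for each tested member over all 8 arrays (black, with the 95% interval of the fit) and without 8-week replicates 1 and 2 (orange diamonds). Ugt1a10 and Ugt2b35 lie left of 0 and Sult1c2 and Ugt3a1 right of 0 in both, while 6 members have diamonds on the other side of 0.

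Among UGT1 genes, the probe for the Ugt1a10 and Ugt1a9 first exons gave the most negative difference. In human, UGT1A9 is among the enzymes that conjugate acetaminophen and other phenols. The Ugt1a10 probe read -1.05, -0.55, 0.01 and -0.18 in the 80-week livers, against 0.49, 0.07, 1.00 and 1.64 in the 8-week livers. All 4 values from 80-week livers lay below all 4 from 8-week livers, although 80-week replicate 3 and 8-week replicate 2 were nearly equal. The difference was -1.24 (SE 0.36, adjusted p = 0.233), a signal in 80-week livers 0.423 times that in 8-week livers. Without 8-week replicates 1 and 2 it was -1.76, and weighting arrays by their fit gave -1.55 with an adjusted p of 0.0390, the setting that took a member past the threshold.

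The first exon of Ugt1a6b, a form that conjugates small planar phenols such as acetaminophen, read 2.04, 2.54, 2.58 and 2.63 in 80-week livers. In 8-week livers it read 2.13, 1.47, 1.92 and 2.55, with replicate 2 the lowest of the 8 arrays, and the ages overlapped. The difference was 0.43 (SE 0.26, adjusted p = 0.454 in the fit of all probes), opposite in sign to that of the Ugt1a10 probe. Another probe listed for Ugt1a6b alone, near the coding end, gave 0.38 (SE 0.28). There 8-week replicate 2 was again the lowest array, at 5.64, and the ages overlapped. The Ugt1a genes share their last exons, so the specificity of that probe is uncertain. Neither of these 2 differences was refitted without 8-week replicates 1 and 2. The shared 3′ end was read by a probe listed for Ugt1a10, Ugt1a6a, Ugt1a6b and Ugt1a7c, which stands for Ugt1a6b in the gene fit because it is the brightest. It gave 0.15 (SE 0.25, adjusted p = 0.797) and, without 8-week replicates 1 and 2, -0.17. A probe further along the shared 3′ end, which stands for Ugt1a6a, was above background on 1 of 4 arrays from 80-week livers and 3 of 4 from 8-week livers, and gave -0.47 (SE 0.27), and -0.61 without those replicates.

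Setting both first exons against each other within an array removes what scales a whole array. This ratio was chosen after its values were seen, and its Ugt1a10 probe alone already separated the ages. The log2 ratio of the Ugt1a10 to the Ugt1a6b first exon averaged -2.89 ± 0.25 in 80-week livers and -1.22 ± 0.36 in 8-week livers (SD, n = 4 each), a difference of -1.67. The arrays ran from -3.09 to -2.57 in 80-week livers and from -1.64 to -0.91 in 8-week livers, with no overlap. The difference was -1.97 without 8-week replicates 1 and 2. Because the ratio was picked with its values known, it is given with no test, and 9.62% of all pairs of tested genes had ratios that did not overlap between ages.

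**Figure D3:**
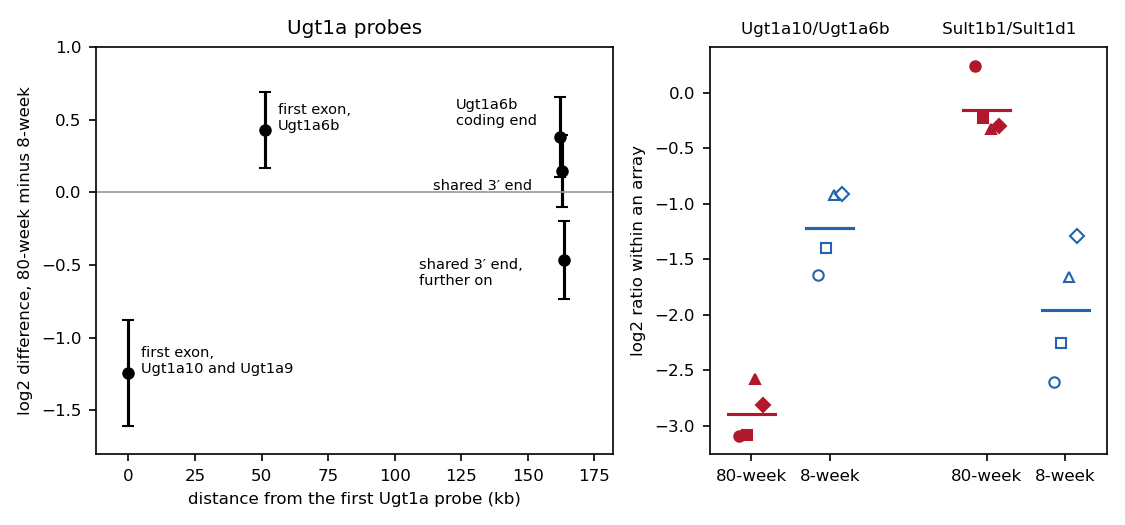
Left, the log2 difference (80-week minus 8-week) ± SE of the 5 Ugt1a probes by distance from the first one, where only the Ugt1a10 and Ugt1a9 first exon lies below -1. Right, log2 ratios within each array with group means as lines, where 80-week arrays (filled red) and 8-week arrays (open blue) do not overlap for Ugt1a10 over Ugt1a6b or for Sult1b1 over Sult1d1.

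The 9 UGT2 genes, which conjugate steroids, bile acids and many drugs, had 8 positive differences and 1 negative one. The exception was Ugt2b35, whose substrates are little known. Ugt2b35 read 0.00, 0.45, 0.08 and 0.13 in 80-week livers, against 1.03, 0.45, 0.88 and 0.90 in 8-week livers. The groups did not overlap, but replicate 2 of both ages gave 0.45 to 2 decimals, and the separation rested on the other 3 arrays of each age. The difference was -0.65 (SE 0.20, adjusted p = 0.252) and -0.72 without 8-week replicates 1 and 2.

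The other 8 UGT2 genes overlapped between the ages. Ugt2b1, an enzyme with broad substrates, had the most positive difference, 0.82 (SE 0.45), with values of 3.36 to 3.75 in 80-week livers and 1.22 to 3.73 in 8-week livers. Its low end was 8-week replicate 2, and the difference was 0.18 without 8-week replicates 1 and 2. Ugt2a3 had a difference of 0.56, which was 0.09 without those replicates, and Ugt2b34 had 0.40, which was 0.23 without them. Ugt2b5, Ugt2b37 and Ugt2b38 had differences of 0.18, 0.29 and 0.16, and turned to -0.23, -0.14 and -0.16 without them. In the 80-week livers the SD of Ugt2b5 was 0.10 and that of Ugt2b38 was 0.08, against 0.60 and 0.57 in the 8-week livers. Much of that 8-week spread came from replicate 2, at 6.30 for Ugt2b5 and 6.68 for Ugt2b38. The other 8-week arrays read 7.15 to 7.72 and 7.62 to 8.00.

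Within the UGT2 cluster, of 36 pairs of genes, 11 had log2 ratios that did not overlap between ages. Over all 43 pairs formed inside a family cluster it was 14, or 32.6%, beside 9.62% of all pairs of tested genes. The 43 include the first-exon pair above, which was chosen with its values known. They also include pairs with Ugt2b35 and Ugt3a1, which each separated the ages by themselves. The share is a description and carries no test. The pairs share genes and are not independent: 7 of the 11 contained Ugt2b35 and 3 of the others contained Ugt2a3. The ratio of Ugt2b1 to Ugt2b35 ran from 3.22 to 3.52 in 80-week livers and from 0.77 to 2.84 in 8-week livers. The ratio of Ugt2a3, in human an enzyme of bile acid conjugation, to Ugt2b5 averaged -1.98 ± 0.08 in 80-week livers and -2.37 ± 0.08 in 8-week livers (SD, n = 4 each), a small difference of 0.38 with no overlap.

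Sequence limits what some of these probes can separate. The Ugt2b36 probe spans an exon junction within chr5:87495455-87509913 (mm9, minus strand), and the array files list transcripts of Ugt2b36 and Ugt2b37 for it, so its values may hold both. Its sequence is given from the array files with no base in capitals, and was not compared here with that of Ugt2b37.
Ugt2b36: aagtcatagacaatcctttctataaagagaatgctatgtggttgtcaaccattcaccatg
The Ugt2a1 probe was likewise listed for Ugt2a1 and Ugt2a2, the nasal forms. The Ugt2b36 and Ugt2b37 probes gave differences of 0.33 (SE 0.27) and 0.29 (SE 0.30), and without 8-week replicates 1 and 2 the Ugt2b36 probe gave 0.07.

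The UGT3 genes differ from the other UGTs in sugar donor: the human enzymes use other UDP-sugars in place of UDP-glucuronic acid. Ugt3a1 read 5.005, 4.85, 5.12 and 5.26 in 80-week livers, against 4.16, 3.15, 4.29 and 4.73 in 8-week livers. Every 80-week value lay above every 8-week value, with 8-week replicate 2 the lowest. The difference was 0.98 (SE 0.31, adjusted p = 0.275), a 1.97-fold higher signal in 80-week livers, and it was 0.55 without 8-week replicates 1 and 2. Ugt3a2, its neighbour on chromosome 15, had values of 5.81 to 6.21 in 80-week livers and 4.39 to 5.94 in 8-week livers, which overlapped, and a difference of 0.62 (SE 0.33). It was 0.12 without 8-week replicates 1 and 2, and a second Ugt3a2 probe over all arrays gave 0.49 (SE 0.33). The log2 ratio of Ugt3a1 to Ugt3a2 was -0.93 ± 0.05 in 80-week livers and -1.29 ± 0.15 in 8-week livers (SD, n = 4 each). It did not overlap, beside 9.62% of all pairs of tested genes, and Ugt3a1 alone already separated the ages.

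Of 21 SULT genes on the array 10 were tested, and their differences ran from -1.91 to 2.12, the widest range of the 5 groups. Sult1c2, a sulfotransferase of small phenols, read 0.14, 0.17, 1.86 and 2.51 in 80-week livers. In 8-week livers it read -0.56, -0.49, -1.32 and -0.60. The 80-week replicates 3 and 4 were high, replicates 1 and 2 were nearer to the 8-week livers, and the groups did not overlap. The difference was 1.91 (SE 0.53, adjusted p = 0.210), a 3.76-fold higher signal in 80-week livers, and 2.13 without 8-week replicates 1 and 2.

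Sult2a7 belongs to the SULT2A family of hydroxysteroid and bile acid sulfotransferases. It read 0.24, 0.40, 3.44 and 4.08 in 80-week livers, against -0.86, -1.16, 0.15 and 1.55 in 8-week livers. The same 2 samples were high among the 80-week livers, and 8-week replicate 4 lay above 80-week replicates 1 and 2, so the ages overlapped. The difference was 2.12 (SE 0.95, adjusted p = 0.357), and 1.19 without 8-week replicates 1 and 2. Sult2a8, a bile acid sulfotransferase of mouse liver next to Sult2a7 in the same cluster, had 6.34 to 7.04 in 80-week livers and 4.22 to 6.66 in 8-week livers. Its difference was 1.03 (SE 0.46, adjusted p = 0.355), and 0.35 without those replicates.

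Sult3a1, an amine sulfotransferase in the mouse, was too dim to be tested but had the same high samples. Its brighter probe read -1.22 and -1.98 in 80-week replicates 3 and 4, where both Sult3a1 probes were well above background, and -4.74 and -4.73 in 80-week replicates 1 and 2. It was well above background in none of the 4 8-week livers, at -5.96 to -5.06. Over its 4 arrays the 80-week mean of the brighter probe was 1.09-fold the lowest signal well above background on the 8-week arrays. That mean includes 80-week replicates 1 and 2, which were not well above background, so no lower limit on the difference follows. The 80-week mean of the other probe lay below that signal.

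Some markers of pericentral hepatocytes, the cells around the central vein, were high in the same 80-week samples, among them Slc1a2, Glul, Rhbg and Lgr5. Of 8 listed pericentral markers 7 were tested, all 7 had positive differences, and 1 passed the threshold, the glutamate transporter Slc1a2 (4.39, SE 0.57, adjusted p = 0.0127). Slc1a2, without 8-week replicates 1 and 2, was 4.38 with an adjusted p of 0.202, and 6 of the 7 were positive. Glul, the glutamine synthetase of those cells, read 3.94, 3.91, 6.48 and 6.20 in 80-week livers, against 3.11, 2.95, 3.31 and 3.14 in 8-week livers. Cyp2e1, a pericentral cytochrome P450 that oxidises acetaminophen, did not follow and read 9.49, 9.55, 9.59 and 9.37 in 80-week livers, against 9.44, 8.76, 9.75 and 9.75 in 8-week livers. The log2 of the summed signal of the list ran from 9.74 to 10.34 in 80-week livers and from 8.89 to 9.99 in 8-week livers. Signal was summed before the logarithm, so the bright Cyp2e1 and Oat weigh most in it, and Slc1a2, Glul, Rhbg and Lgr5 weigh little. The part of the pericentral list in the Sult1c2, Sult2a7 and Sult3a1 values was not tested. None of 7 periportal markers passed the threshold. Of these, Cdh1 lay wholly below the 8-week livers (3.76% of all genes did), with a difference of -3.93 (SE 0.86, adjusted p = 0.120). It had signal above background on 2 of 4 arrays from 80-week livers, and its difference was -3.11 without 8-week replicates 1 and 2. Over all arrays 4 of the 7 periportal markers were positive, with a median of 0.005. Without those replicates 1 of 7 was positive and the median was -0.50, where 42.5% of all genes were positive.

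**Figure D4:**
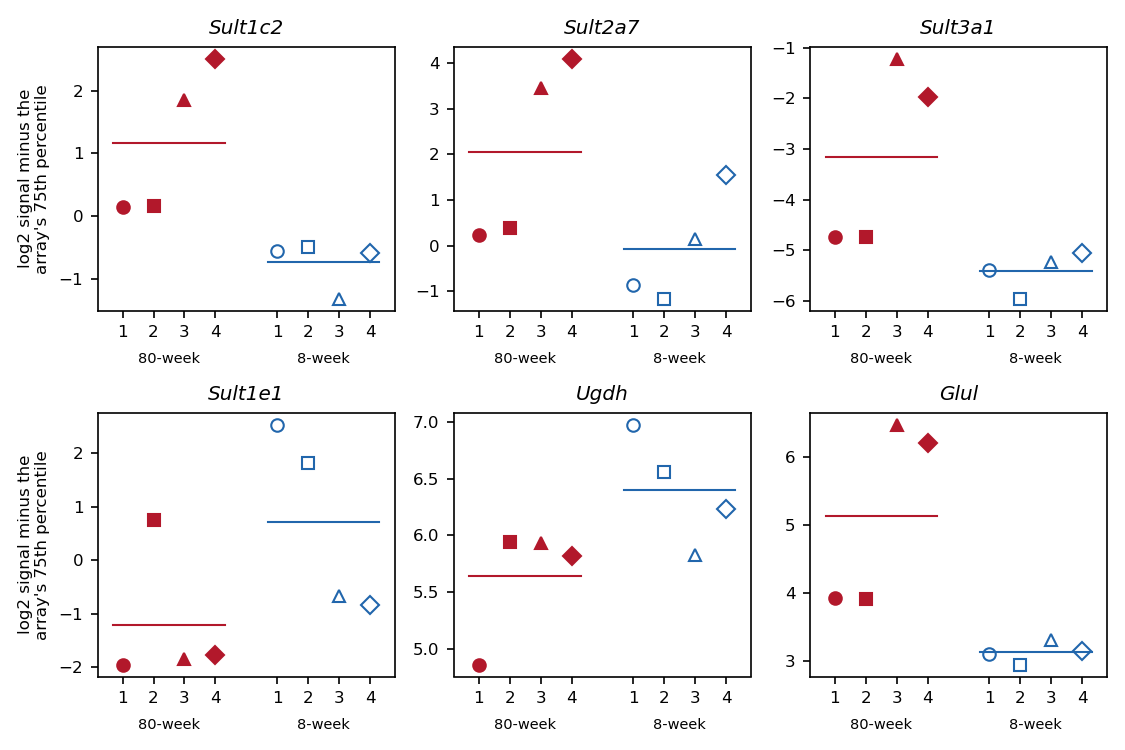
Log2 signal minus the array's 75th percentile for 5 members and the pericentral marker Glul, by replicate, with 80-week arrays as filled red symbols on the left and 8-week arrays as open blue symbols on the right, and lines for group means. For Sult1c2, Sult2a7, Sult3a1 and Glul the 80-week replicates 3 and 4 are the highest, and Sult3a1 was well above background only there.

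Sult1e1, the estrogen sulfotransferase, had the most negative SULT difference. It read -1.95, 0.75, -1.84 and -1.78 in 80-week livers, against 2.53, 1.82, -0.68 and -0.85 in 8-week livers. The 8-week replicates 1 and 2 were high, 80-week replicate 2 stood apart from its group, and the ages overlapped. The difference was -1.91 (SE 0.88, adjusted p = 0.366), and -0.44 without 8-week replicates 1 and 2.

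Sult1b1, which sulfates thyroid hormones, and Sult1d1, which sulfates catecholamines in the mouse, lie beside Sult1e1 in a cluster on chromosome 5 and had differences of opposite sign. Sult1b1 read 2.79, 2.85, 3.55 and 3.72 in 80-week livers, against 1.52, 0.81, 2.76 and 2.84 in 8-week livers. Its difference was 1.24 (SE 0.46, adjusted p = 0.306), and the groups overlapped by less than 0.1 between 80-week replicate 1 and 8-week replicate 4. Sult1d1 read 2.54, 3.07, 3.88 and 4.02 in 80-week livers, against 4.12, 3.07, 4.43 and 4.13 in 8-week livers, a difference of -0.56 (SE 0.40). The differences were 0.42 for Sult1b1 and -0.90 for Sult1d1 without 8-week replicates 1 and 2.

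The ratio of these neighbours did not overlap between ages, beside 9.62% of all pairs of tested genes. It too was chosen after its values were seen. The log2 ratio of Sult1b1 to Sult1d1 was 0.25, -0.22, -0.33 and -0.30 in 80-week livers, against -2.60, -2.26, -1.66 and -1.29 in 8-week livers. Group means were -0.15 ± 0.27 in 80-week livers and -1.95 ± 0.59 in 8-week livers (SD, n = 4 each), a difference of 1.80, given with no test. The second probes of both genes gave 1.94, also with no overlap. The second Sult1b1 probe alone already separated the ages, at -0.90 to -0.06 in 80-week livers and -3.03 to -0.96 in 8-week livers. Without 8-week replicates 1 and 2 the difference was 1.33, and the groups still did not overlap.

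Sult1a1, the main phenol sulfotransferase of acetaminophen, showed no age difference beyond its spread. It read 6.31, 6.10, 6.90 and 6.55 in 80-week livers, against 5.84, 5.57, 7.21 and 6.94 in 8-week livers. The 8-week values enclosed all those of the 80-week livers, with 8-week replicates 1 and 2 below them and replicates 3 and 4 above. The difference was 0.07 (SE 0.38, 95% interval -0.78 to 0.93), a second probe gave 0.07 too, and without 8-week replicates 1 and 2 it was -0.61. Sult4a1, a form best known from brain, had a difference of 0.62 (SE 0.26, adjusted p = 0.338), and 0.34 without those replicates. Sult1c1 had -0.15 (SE 0.28), and Sult5a1 had 0.03 (SE 0.58) with -0.49 from its second tested probe.

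In cofactor supply Ugdh, which oxidises UDP-glucose to UDP-glucuronic acid, had the only negative difference among its 5 genes. Ugdh read 4.86, 5.94, 5.93 and 5.81 in 80-week livers, against 6.97, 6.56, 5.83 and 6.23 in 8-week livers. The 80-week replicate 1 was low and 8-week replicate 1 high, and 8-week replicate 3 lay among the 80-week livers. The difference was -0.76 (SE 0.32, adjusted p = 0.345), the second Ugdh probe gave -0.98 (SE 0.36), and without 8-week replicates 1 and 2 the difference was -0.39. Ugp2, which makes UDP-glucose, had a difference of 0.21 (SE 0.23).

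Papss2, the PAPS synthase that predominates in liver, read 5.01, 4.72, 4.83 and 5.23 in 80-week livers, against 3.73, 2.92, 4.77 and 4.83 in 8-week livers. Its difference was 0.88 (SE 0.40, adjusted p = 0.366) and its second probe gave 0.78, but without 8-week replicates 1 and 2 it was 0.15. Slc26a1, a sulfate transporter of the hepatocyte membrane, had 0.67 (SE 0.33) and 0.03 without them. Papss1, the other PAPS synthase, had 0.18 (SE 0.23) and 0.0075 without them. Where a member had further tested probes, which was the case for 9 probes of 8 genes, 8 of the 9 gave the same sign as the brightest probe, Sult5a1 being the exception.

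The 12 members not tested were Ugt8a and 11 SULT genes, among them Sult2a1 to Sult2a6, Sult2b1, Sult3a2, Sult6b1 and Sult6b2. Of these, 6 had no probe well above background on any array and 5 had 1 array, leaving Sult3a1. Sult3a2 had its array in 8-week replicate 4, at 0.04, where the other 7 arrays ran from -6.01 to -3.40. Some Sult2a probes were listed for more than 1 gene, such as that for Sult2a1 and Sult2a4, and a dim signal sets only an upper limit for these genes.

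In the wider pathway 0 genes passed the threshold in each of 5 lists. Of 14 transcription factors known to act on UGT and SULT genes, 13 had positive differences with a list median of 0.55 (52% of all genes were positive), and 4 lay wholly above the 8-week livers (4.62% of all genes). With those 2 8-week replicates left out, 11 of 14 were positive with a median of 0.13, where 42.5% of all genes were positive. The 4 that lay wholly above the 8-week livers were Ahr, Ppara, Esr1 and Rxra. Over all 8 arrays Ahr, the aryl hydrocarbon receptor that induces Ugt1a6, had 1.37 (SE 0.32, adjusted p = 0.139) and Ppara, a lipid sensor, had 1.00. Esr1, an estrogen receptor, had 1.61 and Rxra, the shared partner of nuclear receptors, had 0.63. Ahr read 2.43, 3.18, 3.83 and 3.81 in 80-week livers, against 1.68, 2.18, 1.90 and 2.02 in 8-week livers. Those differences without 8-week replicates 1 and 2 were 1.35 for Ahr, 0.77 for Ppara, 0.52 for Esr1 and 0.27 for Rxra.

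Genes of sulfite and sulfate supply were positive in 7 of 7 tested, with a list median of 0.49, beside 52% of all genes. In the absence of 8-week replicates 1 and 2, 2 of 7 were positive and the median was -0.16. Suox, the sulfite oxidase, had 0.84 (SE 0.46), with 6.003 to 6.19 in 80-week livers and 4.03 to 6.30 in 8-week livers, and it was -0.082 without those replicates. Those for efflux and uptake of conjugates were positive in 7 of 7 as well (median 0.29), and in 3 of 7 (median -0.07) without those replicates. Slco1b2, a hepatocyte uptake carrier, had 1.10 (SE 0.45), which was 0.46 without them, Abcg2, an exporter of sulfates, had 0.62 (SE 0.28), which was 0.17, and Abcc2, the bile canalicular exporter of glucuronides, had 0.06 (SE 0.23). Of 6 genes that remove the groups again, 3 were positive (median 0.20), and 3 of 6 (median -0.02) without those replicates. Arsa, a lysosomal arylsulfatase, had 0.66 (SE 0.20, adjusted p = 0.252) and lay wholly above the 8-week livers (4.62% of all genes did). Arsb had 0.96 (SE 0.31) with overlap, and Gusb, the beta-glucuronidase, had -0.22 (SE 0.20). Among transport and turnover genes 5 of 7 were positive (median 0.16), and Uxs1, which consumes UDP-glucuronic acid, had -0.72 (SE 0.28), which was -0.26 without them.

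All 5 hepatocyte markers, such as the albumin gene Alb, were well above background on all arrays and none passed the threshold. The log2 of their summed signal ran from 10.67 to 11.38 in 80-week livers and from 9.99 to 11.20 in 8-week livers, and Alb was lowest, at 8.98, in 8-week replicate 2. Among cholangiocyte markers Krt19, Krt7 and Epcam were not tested, and the summed signal of Sox9 and Spp1 ran from 3.05 to 3.99 in 80-week livers and from 3.31 to 4.74 in 8-week livers. The neutrophil list, 3 of 4 tested, ran from 4.56 to 6.82 in 80-week livers and from 6.18 to 7.18 in 8-week livers. Their part in the members' differences was not tested.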

How the data were processed

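Liver RNA of 80-week and 8-week male mice was measured on 8 single-colour arrays. The authors deposited scanner files of spot intensity, background-corrected by Feature Extraction 10.7.3.1 per the file headers, while the submitters' processing notes name version 9.1. The authors' deposited table of intensity matched the processed signal within 1% for 100% of probes on each array and served as an alternative, with 0 columns of other samples.

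From the deposited intensity, log2 values were taken without outlier spots, and each array's 75th percentile over non-control probes (154.7 to 352.8 intensity units) was subtracted. A gene was represented by its brightest probe well above background on at least 4 of 8 arrays. The ages were compared in limma 3.58.1 (lmFit and eBayes, R 4.3.3), with Benjamini-Hochberg adjustment over 17565 genes (25738 probes for single probes) and a threshold of 0.05. The fit was tested on simulated data. Every member is named or counted, and list genes are those with the smallest p or a role described. The members and lists were chosen with earlier results of these data known. Probe positions are those of the files (mm9), and 41 of 41 member symbols matched RefSeq's table on GRCm38.p6. Precision is limited by the number of arrays. A bound written as "at least" sets the brighter mean against the lowest signal well above background.

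Alternatives covered background correction, scaling, filters, probe choice, variance prior, array weights, the authors' table, leaving out arrays and a replicate block. The fit of all probes was counted among them. Replicate numbers were not used to pair the samples in the main fit. Deviations from the group means correlated at 0.03, 0.14, 0.11 and 0.10 for numbers 1 to 4, which does not settle whether the numbers mark pairs.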

Additional observations from a re-analysis of the deposited data

Results flagged for a closer look

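In each group of 4 arrays, the highest or lowest value of a member was compared with its neighbours by Dixon's ratio of gap to range. A sample stood apart in 5 of 58 groups (8.62%), where the nominal rate for independent normal values is about 5%. The share over all tested genes was not computed and the members share arrays, so the count says nothing particular about them. For Sult1c2, 8-week replicate 3 read -1.32, while the other 8-week livers read -0.60 to -0.49. For Sult1e1, 80-week replicate 2 read 0.75, while the other 80-week livers read -1.95 to -1.78. For Sult4a1, 80-week replicate 2 read -1.52, against -1.21 to -1.17 in the others of that age. For Ugdh, 80-week replicate 1 read 4.86, while the other 80-week livers read 5.81 to 5.94. For Ugp2, 80-week replicate 4 read 6.29, against 5.57 to 5.66 in the others of that age.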

How the results depend on the processing

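The differences of the 29 members were recomputed under 608 combinations of member and alternative setting: 580 kept their sign and side of the threshold, 1 passed it and 27 turned sign. The replicate block, the variance prior and the fit of all probes cannot change a member's difference, and the filters on dim probes changed none. Under those settings only the adjusted p could move, so the 580 overstates how far the signs were tried. Array weights gave Ugt1a10 -1.55 (adjusted p = 0.0390, range over its settings 0.0390 to 0.463), 1 member lower, and over all genes 136 higher and 36 lower. The same weights turned Sult1a1 to -0.47, Sult5a1 to -0.82, Ugt1a6b to -0.11, Ugt2b37 to -0.032, Ugt2b38 to -0.083 and Ugt2b5 to -0.13. Without 8-week replicates 1 and 2 together, Sult1a1 was -0.61, Sult5a1 -0.88, Ugt1a6b -0.17, Ugt2b37 -0.14, Ugt2b38 -0.16 and Ugt2b5 -0.23, and over all genes 12 were higher and 2 lower. That setting tests fewer arrays, and with it both chosen log ratios kept their sign (-1.97 and 1.33) and did not overlap. Median scaling, which moved the median of all genes by -0.10, gave Sult1a1 -0.032 and Sult5a1 -0.077, and the mean of a gene's probes gave Sult5a1 -0.23. Leaving out single arrays, Sult1a1 ran from -0.20 to 0.34, Sult5a1 from -0.41 to 0.35, Sult1c1 from -0.38 to 0.012, Ugt1a6b from -0.084 to 0.27, Ugt2b37 from -0.0073 to 0.49, Ugt2b38 from -0.11 to 0.33 and Ugt2b5 from -0.10 to 0.37. Normexp background correction gave a UGT1 median of -0.047. Over all genes 25 to 69 were higher and 2 to 14 lower when single arrays were left out, fewest without 8-week replicate 1 and, for the lower ones, most without 80-week replicate 2. Requiring signal on all arrays left 15478 genes, with 20 higher and 1 lower. The number lower was 8 with quantile scaling, 13 with median scaling, 8 with no filter on dim probes (which moved the median of all genes by 0.17), 9 with the mean of probes and 8 with a trended and robust variance prior. The replicate block gave 17 lower genes, and with it 0 members were called. In the check of pairing, 2 of 4 80-week arrays correlated best with their own number. The cause of these shifts was not tested. With 4 arrays of each age, the 95% intervals of several members hold both 0 and a difference of 1, and dim probes give only limits.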
